A study of Homo sapiens with 6 samples.

Results

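Described here are the lysosome and autophagy genes of AGS, a human gastric adenocarcinoma cell line in long use, in RNA-seq libraries made with or without SSD. They are the rows of the deposited gene table that its pathway annotation places in KEGG's lysosome or autophagy pathway, leaving out SQSTM1 and EIF2S1. These were 32 of the 1099 genes in the table. The lysosome annotation was carried by 24 of them and the autophagy annotation alone by 8, and LAMP2 and CTSB carried both. SSD is saikosaponin-D, a triterpenoid saponin from the medicinal root Radix Bupleuri.

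The series held 3 libraries of wild-type AGS cells given vehicle and 3 of wild-type AGS cells given SSD, all after 24 h, to ask which transcripts SSD changes. The dose is not settled, since the labels give 10 μM while the study's methods give a lower one. The protocol fields of the labels name another cell line, C4-2B, and another compound, L14-8, and do not tie L14-8 to SSD. The treated columns of the table are likewise named AGS_14_10 and not SSD, and were taken as the SSD libraries because the series has a single treated group. AGS is a single line. The study's methods state in general that results come from at least 3 independent experiments. Neither they nor the labels say whether the RNA-seq libraries of a group came from separate cultures. Errors and calls therefore measure the spread between libraries, which may be technical. The table holds none of 8 epithelial markers and none of 7 prostate markers looked for, so the cell line could not be checked in it. Of 9 leukocyte and fibroblast markers it holds COL1A1 alone, at 14.2 ± 1.48 TPM in vehicle and 12.3 ± 2.43 TPM in SSD libraries (SD, n = 3 each), with overlapping groups.

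Lysosomes are acidic organelles in which hydrolases break down proteins, glycans and lipids delivered by endocytosis and by autophagy. Newly made hydrolases are tagged with mannose 6-phosphate in the Golgi and carried to the organelle by sorting receptors, and several need small activator proteins to reach lipid substrates. In autophagy, a kinase complex led by ULK1 starts a double membrane that engulfs cytoplasm and then fuses with lysosomes. Transcription factors of the MiT/TFE family, of which TFEB is the best known, can switch on many lysosome and autophagy genes through sites with the core letters CACGTG.

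How the table was made bears on every value. It lists only genes with a small p in the authors' own test of vehicle against SSD, so that being in it already depends on this comparison, and the lysosome genes were singled out with their values known. The fold changes are therefore a description, and nothing is supported by them. Counts over the table summed to between 3084337 and 4640114 per library, which is a part of each library and not its depth. The same genes held 30.1% to 33.1% of all TPM, a share of transcripts corrected for gene length. The plot of all fold changes shows that no gene of the table lay between -0.03 and 0.21 on the log2 scale. These limits are values on the whole-library scale and not a threshold of the authors.

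Among the 32 genes, the lysosomal enzymes, membrane proteins and sorting receptors were higher under SSD, with CTSE as the single exception. The autophagy genes were split between both directions. The classes are covered in part, with 17 of 63 listed enzymes, 4 of 33 membrane proteins and 3 of 30 sorting and coat proteins. Coverage of autophagy was thinner, with 6 of 72 machinery and 2 of 57 signalling names, so the split rests on few genes. Apart from CTSV, ATG13, EPG5 and SQSTM1, the other names listed for these classes were not in the table. The change of those absent names was not seen here. CTSV, ATG13 and EPG5 are given further below. Of the 32 genes, 27 had a log2 fold change above 0 (35.2% of the table did) and 5 below 0 (64.8% of the table). All 27 were called higher at an adjusted p under 0.05 by edgeR's quasi-likelihood test, adjusted by Benjamini-Hochberg over 11289 genes, against 33.8% of the table. CTSE alone was called lower, against 19.4% of the table. In TPM, 27 genes had every SSD library above every vehicle library (32.2% of the table) and 4 had every SSD library below (44.2% of the table). Since the table was chosen on this contrast, nothing is read from these counts. The median log2 fold change was 0.37 over the 27 higher genes, beside 0.38 over all 387 higher genes of the table, which include them. In bulk libraries, more RNA of a gene per cell and more cells expressing it cannot be told apart.

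No gene of the 32 changed direction under the 16 other settings, which is likely in a table chosen for change. With DESeq2 size factors, IRS1 shrank from -0.11 to -0.02 and CFLAR from -0.16 to -0.07 on the log2 scale. The number called higher moved with single libraries and with the test. Leaving out vehicle replicate 1, 2 or 3 gave 23, 14 or 18 calls in place of 27. Leaving out SSD replicate 1, 2 or 3 gave 27, 16 or 25. Over the table, 371 genes were called higher and 213 lower, and the higher calls numbered 171 without vehicle replicate 2, 186 without SSD replicate 2 and 229 without vehicle replicate 3. On the TMM scale the split was 385 higher to 87 lower, on DESeq2's size factors 387 to 86 and on total counts 386 to 126. Of the 32 genes, 13 were called whichever library was left out, among them TPP1, CTSA, MANBA, HEXA, CTSE, LAMP3, IGF2R, SORT1, WIPI1 and MTMR14. With limma on log2-transformed TPM, 12 of the 32 genes were called higher, beside 114 or 115 of 1099 genes of the table, by pseudocount. MANBA, LAMP3, SORT1, WIPI1 and MTMR14 were not among the 12. TPP1, CTSA, IGF2R and CTSE were among the 7 called in each of the 16 other settings too. How many genes of the table meet the conditions behind the 13 and the 7 was not counted, so nothing is read from either number.

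**Figure D1:**
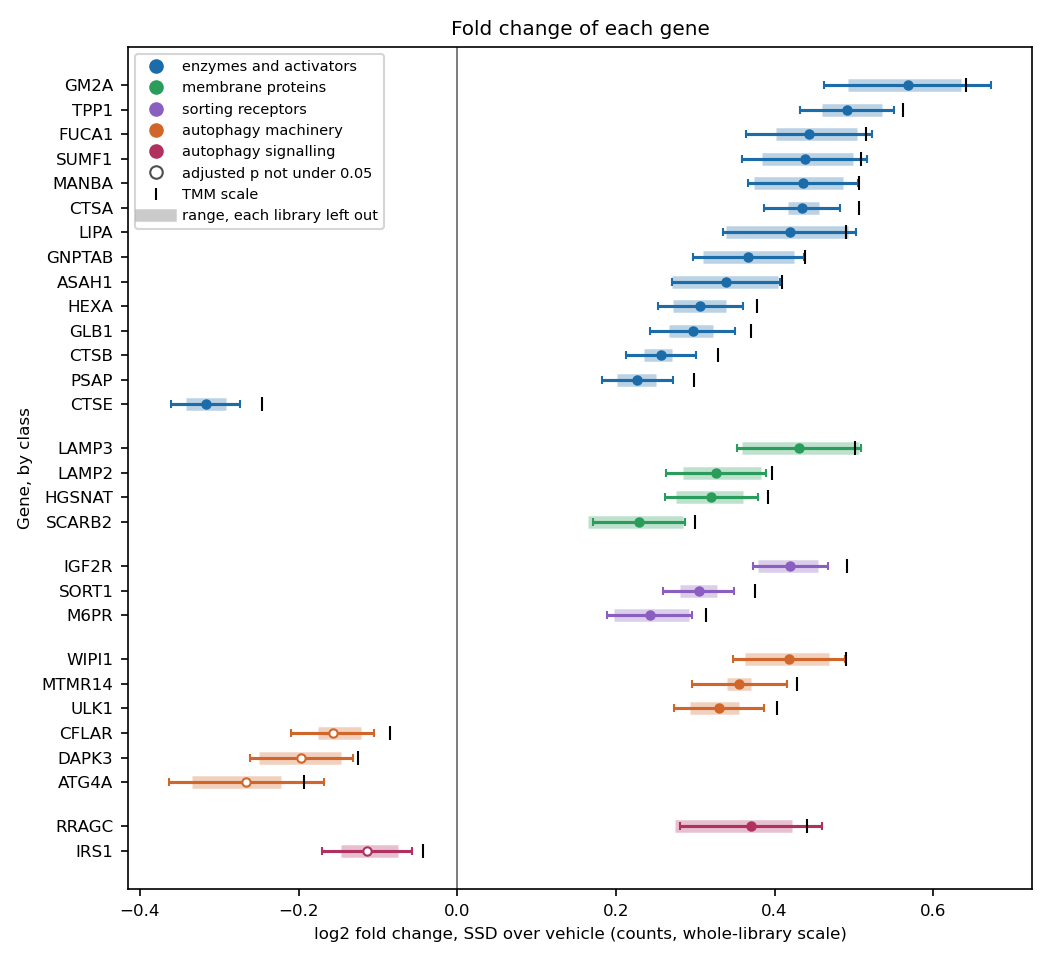
Log2 fold change of SSD over vehicle for 29 of the 32 genes, from counts on the whole-library scale, with bars of 1 standard error, pale bands for the range over fits that each lack 1 library, and black ticks for the TMM scale. Open circles mark the 4 genes with an adjusted p not under 0.05, and CTSE is the single filled circle below 0.

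The lysosomal enzymes and their activators were the largest class, with 17 genes, of which 16 were higher. Their median log2 fold change was 0.40, with a spread between replicates of 0.0390 (SD), beside a median of -0.14 over all genes of the table. The latter is no neutral reference, since 712 of the 1099 genes were lower. Over the 16 higher enzymes and activators the median was 0.41, beside 0.38 over the 387 higher genes of the table. Their levels ran from 5.33 TPM for GM2A to 833 TPM for CTSE in the vehicle mean. CTSE and PSAP together held 48.2% of the TPM summed over the 32 genes in vehicle libraries.

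**Figure D2:**
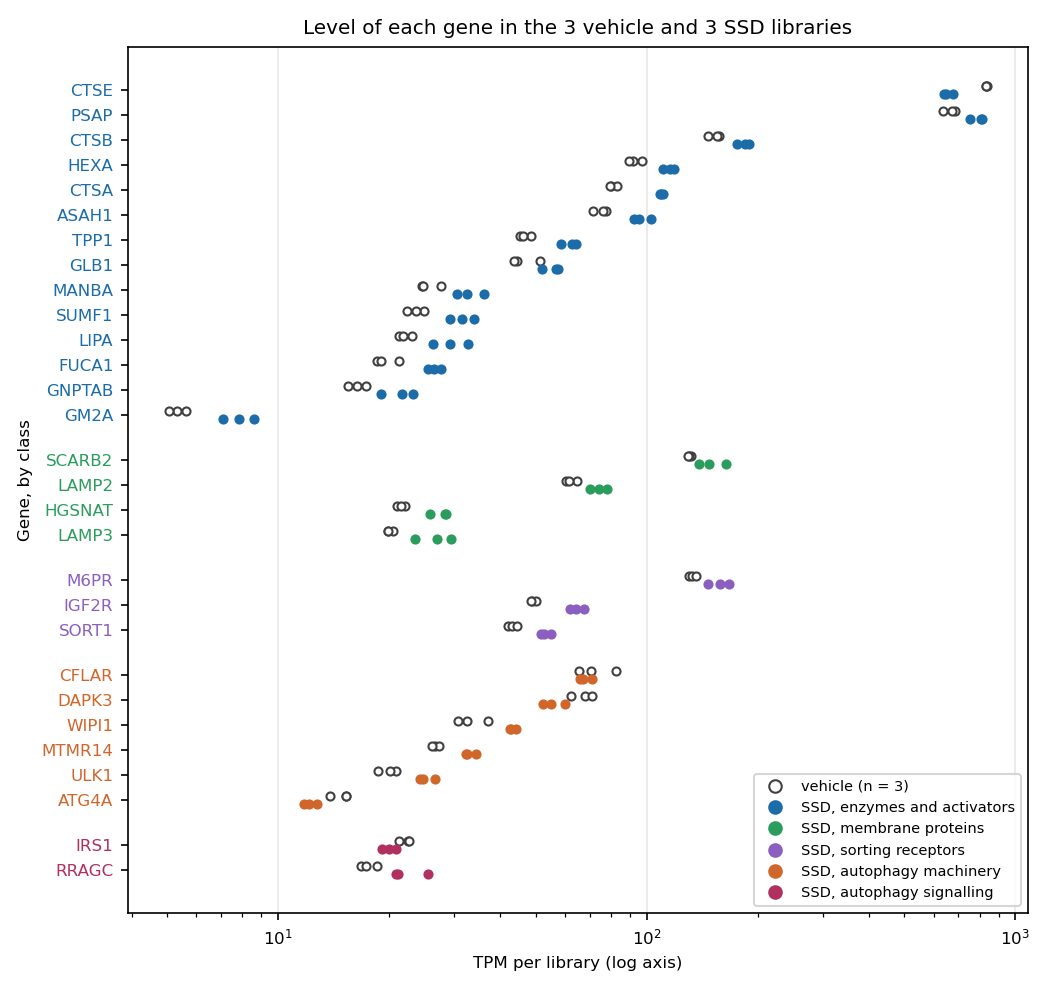
TPM of 29 of the 32 genes in each library on a log axis, with open circles for the 3 vehicle libraries and filled circles, coloured by class, for the 3 SSD libraries. The SSD libraries lie to the right of the vehicle libraries for 24 genes and to the left for CTSE, DAPK3, ATG4A and IRS1, and they overlap for CFLAR.

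Several of the enzymes act on gangliosides and other glycosphingolipids. GM2A (chr5:151212150-151270440, plus strand, GRCh38 as in GENCODE release 29), the activator protein that presents GM2 ganglioside to hexosaminidase A, measured 5.31, 5.05 and 5.62 TPM in vehicle libraries against 8.62, 7.09 and 7.84 TPM in SSD libraries. Its log2 fold change of 0.57 (standard error 0.105) was the largest of the 32 genes and ranged from 0.49 to 0.64 over fits lacking a library. It also had the lowest level, with 211 counts in its lowest library, and its call was lost without vehicle replicate 2.

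HEXA, the alpha subunit of hexosaminidase A, averaged 92.8 ± 3.77 TPM in vehicle and 115 ± 3.80 TPM in SSD libraries (SD, n = 3 each), a log2 fold change of 0.31. ASAH1, the acid ceramidase, averaged 74.9 ± 3.26 TPM in vehicle and 96.8 ± 5.28 TPM in SSD libraries (SD, n = 3 each), a log2 fold change of 0.34. GLB1, the beta-galactosidase that acts on GM1 ganglioside, averaged 46.4 ± 4.11 TPM in vehicle and 55.4 ± 2.96 TPM in SSD libraries (SD, n = 3 each), a log2 fold change of 0.30. For GLB1 the groups nearly met, at 51.2 TPM in vehicle replicate 3 and 52.0 TPM in SSD replicate 3. The calls of ASAH1 and GLB1 were lost without vehicle replicate 2 or SSD replicate 2, and that of ASAH1 also without vehicle replicate 3.

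PSAP (chr10:71816298-71851375, minus strand), the precursor of the saposins that activate several of these enzymes, measured 636, 688 and 674 TPM in vehicle libraries against 754, 811 and 806 TPM in SSD libraries. Its log2 fold change of 0.23 (standard error 0.0450) was the smallest among the 27 higher genes, although its counts, at least 14126 per library, were among the highest. Its call was lost without each vehicle library in turn and without SSD replicate 2.

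Among the proteases, TPP1, CTSA and CTSB were higher and CTSE lower. TPP1 (chr11:6612763-6619485, minus strand), which removes tripeptides from the ends of proteins, measured 45.3, 48.7 and 46.1 TPM in vehicle libraries against 58.6, 62.8 and 64.3 TPM in SSD libraries. It came next after GM2A, at a log2 fold change of 0.49 (standard error 0.0590). CTSA (chr20:45890144-45898820, plus strand), a serine carboxypeptidase that also protects beta-galactosidase and neuraminidase in a complex, measured 79.8, 83.1 and 79.4 TPM in vehicle libraries against 111, 109 and 109 TPM in SSD libraries. The SSD libraries of CTSA lay close together and well above vehicle, for a log2 fold change of 0.43 (standard error 0.0482). CTSB, a cysteine cathepsin, averaged 153 ± 5.43 TPM in vehicle and 183 ± 7.05 TPM in SSD libraries (SD, n = 3 each), a log2 fold change of 0.26 whose call was lost without SSD replicate 2.

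CTSE (chr1:206009264-206023909, minus strand) encodes cathepsin E, an aspartic protease of the pepsin family found mainly in endosomal compartments and abundant in gastric epithelium. It measured 829.9, 838 and 832 TPM in vehicle libraries against 641, 649 and 678 TPM in SSD libraries. All SSD libraries lay far below the vehicle libraries, which were close together. Its log2 fold change was -0.32 (standard error 0.0434), from -0.34 to -0.29 over fits lacking a library.

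The order of the most abundant genes changed with it. CTSE had the highest level of the 32 genes in vehicle libraries and PSAP the next, and in SSD libraries PSAP was above CTSE. The TPM of CTSE over that of PSAP was 1.25 ± 0.0459 in vehicle and 0.831 ± 0.0266 in SSD libraries (SD, n = 3 each), a ratio chosen after its values were seen. Summed over the other 16 enzymes and activators, the TPM was 1514, 1563 and 1546 in vehicle libraries against 1853, 1948 and 1947 in SSD libraries. With CTSE in the sum, it was 2374 ± 28.8 TPM in vehicle and 2572 ± 69.1 TPM in SSD libraries (SD, n = 3 each).

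Enzymes that take apart glycans and neutral lipids were higher. FUCA1, the alpha-fucosidase, measured 21.2, 18.5 and 19.0 TPM in vehicle libraries against 26.4, 25.6 and 27.6 TPM in SSD libraries, a log2 fold change of 0.44 (standard error 0.0794). MANBA, the beta-mannosidase, measured 27.6, 24.5 and 24.8 TPM in vehicle libraries against 30.5, 32.6 and 36.2 TPM in SSD libraries, a log2 fold change of 0.44 (standard error 0.0696). LIPA, the acid lipase that hydrolyses cholesteryl esters and triglycerides, measured 23.1, 21.2 and 21.9 TPM in vehicle libraries against 26.2, 29.2 and 32.7 TPM in SSD libraries, a log2 fold change of 0.42 (standard error 0.0838). The groups did not overlap for any of these genes, and for MANBA and LIPA SSD replicate 1 was the closest to vehicle and SSD replicate 3 the farthest. The calls of FUCA1 and LIPA were lost without vehicle replicate 2, and that of LIPA also without vehicle replicate 3 or SSD replicate 2.

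A further pair of genes of this class act before the lysosome. SUMF1 (chr3:3700814-4467281, minus strand), the enzyme of the endoplasmic reticulum that makes sulfatases active, measured 24.9, 22.3 and 23.6 TPM in vehicle libraries against 29.2, 31.6 and 33.9 TPM in SSD libraries. The groups did not overlap, and the log2 fold change was 0.44 (standard error 0.0790). GNPTAB, part of the Golgi enzyme that starts the mannose 6-phosphate tag, averaged 16.4 ± 0.935 TPM in vehicle and 21.3 ± 2.14 TPM in SSD libraries (SD, n = 3 each), a log2 fold change of 0.37. Both calls were lost without vehicle replicate 2, that of SUMF1 also without SSD replicate 2 and that of GNPTAB also without vehicle replicate 3.

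The 3 sorting receptors were all higher, at a median of 0.30 on the log2 scale with a spread between replicates of 0.0561 (SD). IGF2R (chr6:159969099-160113507, plus strand), the large cation-independent receptor for mannose 6-phosphate, measured 48.8, 50.1 and 48.7 TPM in vehicle libraries against 64.3, 62.0 and 67.5 TPM in SSD libraries. The groups were far apart, and its log2 fold change of 0.42 (standard error 0.0472) rested on at least 4829 counts per library. M6PR, the smaller cation-dependent receptor, had a higher level per length, 133 ± 2.98 TPM in vehicle and 157 ± 10.3 TPM in SSD libraries (SD, n = 3 each), with a log2 fold change of 0.24. SORT1 encodes sortilin, which carries prosaposin and some hydrolases without the tag, and averaged 43.2 ± 1.27 TPM in vehicle and 53.1 ± 1.69 TPM in SSD libraries (SD, n = 3 each), with a log2 fold change of 0.30. The call of M6PR was lost without each vehicle library in turn and without SSD replicate 2.

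The region around the start of each gene, 250 bases before to 50 bases after it, was taken from RefSeq on GRCh38.p14 and searched for CACGTG, and for CACGTG with GT before it and AC after it. Both motifs read the same on either strand, and the longer one contains the shorter. Windows were matched for 21 of the 32 genes, 28 in all. Among those not matched were MANBA, ASAH1, HEXA, CTSB, PSAP, LAMP3, LAMP2 and HGSNAT. CACGTG was in 6 of the 28 windows (21.4%), 1 each of SUMF1, CTSA, IGF2R, M6PR, RRAGC and IRS1, beside 7.26% of 35116 windows of all genes and 11.1% of 1271 windows of genes of the table. The longer motif was in the window of IGF2R alone, beside 0.353% of all windows and 0.865% of windows of genes of the table. IRS1, whose log2 fold change was below 0, had CACGTG, while GM2A and TPP1, with the largest log2 fold changes, had none in these windows.

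The windows printed are those of the lysosome genes with the largest log2 fold changes among those with CACGTG, because these genes were higher together and differ in how many copies they hold, with the letters searched for in capitals. The window of IGF2R, plus strand, chr6:159968832-159969131, holds CACGTG from 132, 74 and 28 bases before the start, the last inside the longer motif. The window of CTSA, plus strand, chr20:45891085-45891384, holds it from 42 and 25 bases before the RefSeq start, which lies inside the gene as GENCODE draws it. The window of SUMF1, minus strand, chr3:4467220-4467519, holds it from 13 bases before the start. A match of letters is a description and does not tell which factor, if any, would bind. Binding was not measured here.
IGF2R: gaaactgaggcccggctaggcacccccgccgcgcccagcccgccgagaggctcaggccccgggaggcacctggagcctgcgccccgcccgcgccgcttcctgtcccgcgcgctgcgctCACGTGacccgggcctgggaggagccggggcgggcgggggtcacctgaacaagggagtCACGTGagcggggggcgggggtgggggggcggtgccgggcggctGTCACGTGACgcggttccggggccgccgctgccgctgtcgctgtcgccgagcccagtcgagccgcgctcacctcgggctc
CTSA: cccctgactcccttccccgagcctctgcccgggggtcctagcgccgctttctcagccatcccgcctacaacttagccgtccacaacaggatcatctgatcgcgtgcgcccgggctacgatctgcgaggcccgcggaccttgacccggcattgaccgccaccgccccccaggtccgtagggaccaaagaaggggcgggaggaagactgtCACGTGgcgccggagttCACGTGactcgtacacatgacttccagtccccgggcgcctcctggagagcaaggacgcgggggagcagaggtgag
SUMF1: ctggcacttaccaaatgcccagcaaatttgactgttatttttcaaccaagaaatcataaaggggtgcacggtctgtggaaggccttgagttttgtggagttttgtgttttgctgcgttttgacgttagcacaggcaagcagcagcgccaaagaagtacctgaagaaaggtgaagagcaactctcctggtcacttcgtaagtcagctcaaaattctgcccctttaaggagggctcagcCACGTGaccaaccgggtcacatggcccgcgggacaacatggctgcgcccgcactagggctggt

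The 4 membrane proteins had a median log2 fold change of 0.32, with a spread between replicates of 0.0783 (SD). LAMP3 (chr3:183122213-183163839, minus strand), a lysosome-associated membrane protein also known as an interferon-inducible gene, measured 19.8, 20.5 and 19.8 TPM in vehicle libraries against 23.5, 26.9 and 29.5 TPM in SSD libraries. The vehicle libraries were close together and the SSD libraries spread above them, for a log2 fold change of 0.43 (standard error 0.0778). LAMP2, a major glycoprotein of the lysosomal membrane that is needed for fusion with autophagosomes, averaged 62.1 ± 2.22 TPM in vehicle and 74.0 ± 4.03 TPM in SSD libraries (SD, n = 3 each), a log2 fold change of 0.33. HGSNAT, the membrane-bound acetyltransferase of heparan sulfate breakdown, averaged 21.5 ± 0.596 TPM in vehicle and 27.6 ± 1.60 TPM in SSD libraries (SD, n = 3 each), a log2 fold change of 0.32.

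SCARB2, an integral protein of the lysosomal membrane, measured 132, 130.1 and 129 TPM in vehicle libraries against 138, 147 and 164 TPM in SSD libraries. As for LAMP3, the vehicle libraries were close together and SSD replicate 3 was the highest. Its log2 fold change was 0.23 (standard error 0.0579) and 0.16 without SSD replicate 3, and its call was kept only when SSD replicate 1 was the library left out. The calls of LAMP2 and HGSNAT were lost without vehicle replicate 3 or SSD replicate 2, and that of LAMP2 also without vehicle replicate 2.

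The 8 genes with the autophagy annotation alone were divided, 4 higher and 4 lower, at a median of 0.11 on the log2 scale with a spread between replicates of 0.0347 (SD). WIPI1 (chr17:68420948-68457513, minus strand), which binds phosphatidylinositol 3-phosphate on the forming membrane, measured 37.1, 32.5 and 30.7 TPM in vehicle libraries against 42.9, 44.1 and 42.4 TPM in SSD libraries. The SSD libraries lay close together above all vehicle libraries, and the log2 fold change was 0.42 (standard error 0.0702). MTMR14, a phosphatase that acts on the same lipid, averaged 26.7 ± 0.538 TPM in vehicle and 33.1 ± 1.08 TPM in SSD libraries (SD, n = 3 each), a log2 fold change of 0.36. ULK1, the kinase that initiates autophagy, averaged 19.9 ± 1.15 TPM in vehicle and 25.2 ± 1.28 TPM in SSD libraries (SD, n = 3 each), a log2 fold change of 0.33 whose call was lost without vehicle replicate 2. RRAGC, a Rag GTPase through which amino acids bring mTORC1 to the lysosome, measured 18.5, 16.8 and 17.3 TPM in vehicle libraries against 20.8, 21.1 and 25.5 TPM in SSD libraries. SSD replicate 3 stood above the other two, and the log2 fold change of RRAGC was 0.37, or 0.27 without that library. The call of RRAGC was kept only when SSD replicate 1 was the library left out.

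None of the 4 lower autophagy genes was past the adjusted p of 0.05. Over the table, 213 of 712 genes below 0 were called, beside 371 of 387 above 0. The number called lower also moved with the scale. When adjusted over the table alone, CFLAR, DAPK3 and ATG4A were called and IRS1 was not. ATG4A, a protease that prepares proteins of the GABARAP family for conjugation to lipid, measured 15.3, 13.8 and 15.3 TPM in vehicle libraries against 12.2, 11.7 and 12.7 TPM in SSD libraries. DAPK3, a death-associated protein kinase, measured 62.5, 68.0 and 71.1 TPM in vehicle libraries against 59.8, 52.4 and 54.9 TPM in SSD libraries. The groups did not overlap for ATG4A or DAPK3, whose log2 fold changes were -0.27 (standard error 0.0976) and -0.20 (standard error 0.0649). CFLAR, an inhibitor of caspase-8 activation at death receptors, measured 82.7, 70.4 and 65.5 TPM in vehicle libraries against 71.0, 67.2 and 65.7 TPM in SSD libraries. IRS1, the adaptor of insulin and IGF receptors upstream of mTOR, measured 21.3, 22.5 and 22.6 TPM in vehicle libraries against 19.1, 20.0 and 20.9 TPM in SSD libraries. The groups overlapped for CFLAR and nearly met for IRS1, and their log2 fold changes were -0.16 (standard error 0.0523) and -0.11 (standard error 0.0567).

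The 6 genes listed as autophagy machinery were WIPI1, MTMR14, ULK1, CFLAR, DAPK3 and ATG4A, with members on both sides. Their summed level was 235 ± 8.94 TPM in vehicle and 237 ± 8.28 TPM in SSD libraries (SD, n = 3 each). CFLAR and DAPK3 weighed most in it, at 72.9 and 67.2 TPM in the vehicle mean and 68.0 and 55.7 TPM in the SSD mean. At lower levels, WIPI1, MTMR14 and ULK1 were higher and ATG4A was lower. The sum therefore does not tell how the class as a whole changed. The summed level of the 4 membrane proteins was 234 ± 2.56 TPM in vehicle and 278 ± 15.3 TPM in SSD libraries (SD, n = 3 each).

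The SSD libraries were not alike. As a log2 difference from the vehicle mean, the median over the 17 enzymes and activators was 0.31 in SSD replicate 1, 0.39 in SSD replicate 2 and 0.47 in SSD replicate 3. Of the 27 genes called higher, SSD replicate 1 was the lowest SSD library for 15 and SSD replicate 3 the highest for 16. Over all 371 genes called higher, SSD replicate 1 was lowest for 57.7% and SSD replicate 3 highest for 55.8%. For the autophagy machinery, the medians of the SSD libraries were 0.11, 0.07 and 0.08, and vehicle replicate 1 lay at 0.06.

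**Figure D3:**
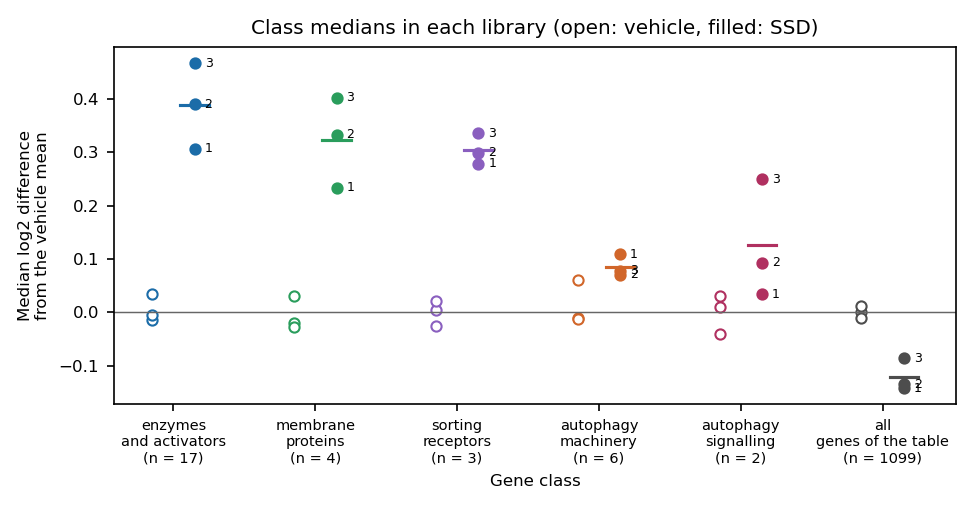
Median log2 difference from the vehicle mean over the genes of each class, in each library, with open circles for vehicle, filled circles with their replicate number for SSD, and a bar at the mean of the 3 SSD libraries. The enzymes, membrane proteins and sorting receptors lie well above the vehicle libraries in all 3 SSD libraries. The median over the 1099 genes of the table, of which 712 were lower, lies below.

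A wider list of 325 names of lysosome and autophagy genes, compiled with earlier results of these data known, placed 8 further genes of the table beside the 32. All 8 were called higher by the same edgeR test and none lower, beside 33.8% and 19.4% of the table. Of the 387 genes of the table above 0, 371 were called, so nothing is read from this count. CREG1, a glycoprotein of lysosomes, averaged 72.3 ± 1.07 TPM in vehicle and 103 ± 11.5 TPM in SSD libraries (SD, n = 3 each), a log2 fold change of 0.51. FLCN and FNIP1, partner proteins that act on the Rag GTPases and hold MiT/TFE factors in check, had log2 fold changes of 0.41 and 0.43. The others were EPG5, a tether for fusion of autophagosomes with lysosomes, at 0.43, the cysteine cathepsin CTSV at 0.41, the lysosomal chloride transporter CLCN7 at 0.33, progranulin (GRN) at 0.32 and ATG13, a partner of ULK1, at 0.31. The calls of CTSV and CLCN7 were lost without SSD replicate 2, that of CTSV also without vehicle replicate 2 and that of CLCN7 also without vehicle replicate 3. None of 15 names of further subunits of the proton pump that acidifies lysosomes was in the table, and TFEB, TFE3, TFEC and MITF, the MiT/TFE factors themselves, were not analysed here.

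Some values could hold reads of other genes. In GENCODE release 29, 7 of the 32 genes share exonic bases with a gene on the same strand, among them TPP1, HEXA, GLB1 and MANBA, and 13 with a gene on the opposite strand, among them CTSA, LIPA, WIPI1, SUMF1 and M6PR. Whether counting used the strand is not stated, so reads of opposite genes may not have been told apart. GM2A, FUCA1 and ATG4A are among those with named pseudogenes. For 13 genes, among them CTSE, PSAP, CTSB, IGF2R, SORT1, LAMP2, LAMP3, MTMR14 and ULK1, neither was found. None of the overlapping genes or pseudogenes was in the table.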

How the data were processed

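RNA-seq was made from AGS cells, 3 libraries with vehicle and 3 with SSD. The estimated counts deposited by the authors were not normalized, and 33.5% of them were not whole. TPM values, as the authors deposited them, were relative to all genes of a library. The p-values in the authors' table gave the number of genes they tested, 11289, and nothing else. Their fold changes and calls were not used. The submitters' processing notes name GRCh38.p13, while the aligner and counting program are not given in the sources used here. Columns were matched to samples by replicate number and by vehicle against the single treated group, whose columns are not named SSD.

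Rounded counts of all 1099 genes (smallest mean 59, 25 rows with an identifier but no gene name included) were tested with edgeR 4.0.16 (quasi-likelihood test, R 4.3.3), adjusted over 11289 genes by taking those not listed as larger in p. Standard errors are the log2 fold change over the root of F. Libraries were scaled by the median ratio of counts to TPM over 1029 genes with at least 5 TPM in every library (the whole-library scale), since the table was chosen for change and TMM assumes most genes constant. The test was also run on simulated counts, with most genes unchanged, as many raised as lowered, and the library scale given. The table was chosen for change and its scale was estimated, so that run does not check the scale or the calls made here. Alternatives were TMM, total counts, size factors and the Wald test of DESeq2 1.42.0, limma 3.58.1 with pseudocounts of 1 and 0.1 TPM, mean counts of at least 10 and 500, a block on replicate number, fits lacking each library in turn, and adjustment over the table alone. An exact permutation test of 3 against 3 cannot go below 0.1.

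The genes and lists were chosen with earlier results of these data known. Of the 32 genes, 3 are not reported here by name and stay in the counts, medians and sums. The others are named, with each library's value for those among the 12 largest changes and for genes lower where their class was higher. Values per library of PSAP, SCARB2, RRAGC and the lower autophagy genes were added, and SORT1 was moved from the enzymes to the sorting receptors, after values were seen. All 32 genes matched GENCODE release 29 by Ensembl identifier.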

Additional observations from a re-analysis of the deposited data

How the results depend on the processing

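No gene described here changed direction in any setting, which is likely in a table chosen for change. The other scales raised log2 fold changes, so they could not turn a higher gene. TMM, DESeq2 size factors, total counts and the DESeq2 Wald test kept the call of each of the 32 genes, although TMM raised log2 fold changes by 0.07 and DESeq2 size factors by 0.09 at the median. Medians that moved by more than the spread between replicates were, with TMM, 0.47 for enzymes, 0.38 for sorting receptors and 0.16 for autophagy machinery. With DESeq2 size factors they were 0.49 for enzymes, 0.41 for membrane proteins, 0.40 for sorting receptors, 0.18 for autophagy machinery and 0.22 for autophagy signalling, and with total counts 0.45 for enzymes and 0.14 for autophagy machinery. With a mean of at least 500 counts, which left out GM2A and ATG4A, the autophagy machinery lay at 0.33. Genes called lower in the table numbered 87 with TMM, 86 with DESeq2 size factors, 126 with total counts and 579 when adjusted over the table alone, which also called 4 of the 5 lower genes described here. With pseudocounts of 1 and 0.1 TPM in limma, 114 and 115 genes were called higher and 75 and 73 lower, and 12 of the 32 higher in both. Over fits lacking a library, the enzyme median ranged from 0.34 to 0.42, with 171 to 382 genes called higher, 78 to 284 lower and 14 to 27 of the 32 higher.

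With the replicate number as a block, 186 genes were called higher and 93 lower, and 16 of the 32 higher, HEXA no longer among them. Deviations of same-numbered libraries from their group means correlated at -0.23, -0.0091 and -0.032 over genes. For libraries of different number these correlations ran from -0.20 to 0.23. No effect shared by same-numbered libraries was seen, but whether they were made in pairs cannot be told from this. Some of the fits in this section had fewer samples or genes, and the cause of the changes between settings was not tested.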
